A study of Homo sapiens with 12 samples.

Results

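The 150 genes described here had their lowest mean level at the lower of 2 doses of acriflavine, below both the control and the higher dose. They were chosen by measured values. Among protein-coding genes of the nuclear chromosomes, those with a group mean of at least 5 counts per 1000000 counts of the library (CPM, scaled by the trimmed mean of M-values, TMM) in control and at 5 µM were eligible. Each was scored by the smaller of 2 log2 ratios, control over 2.5 µM and 5 µM over 2.5 µM, and the 150 highest scores were taken from 9735 eligible genes. The deposited table held 63152 genes, of which 19322 were protein-coding and nuclear.

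The study measured poly-A RNA by sequencing in cells of a human line labelled HepG2, which derives from a hepatoblastoma. The sample descriptions name HepG2S1, a sorafenib-resistant derivative that was selected over several months by rising doses of that kinase inhibitor. All 12 libraries share that background, in cells of 1 derived line. Acriflavine, made of DNA-binding acridine dyes, is known to block the dimerisation of hypoxia-inducible factor 1. The 3 groups were control cells, called untreated in the design and given the DMSO vehicle according to the treatment protocol, cells given 2.5 µM acriflavine and cells given 5 µM acriflavine, each harvested after 24 h. Each group had 4 libraries. The design calls them biological replicates without saying whether they came from separate cultures, so the p-values measure the spread between these samples.

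The control libraries held 11891849 to 14024568 counts, those at 2.5 µM 13095641 to 15115510 and those at 5 µM 10733567 to 15116842. The defining markers of hepatocytes went against the HepG2 label: all 10 were under 1 CPM in control, and ALB, AFP and FOXA2 had 0 counts there. Together they summed to 0.879 to 1.69 CPM in control, 0.915 to 2.23 CPM at 2.5 µM and 3.65 to 6.45 CPM at 5 µM. Genes that mark endothelial and blood cells were under 1 CPM each in control and at 2.5 µM, while at 5 µM the endothelial VWF averaged 1.65 CPM and the blood cell genes PTPRC and CD14 averaged 2.27 and 1.57 CPM. Of 6 fibroblast markers, DCN, LUM, COL1A1 and PDGFRB were above 1 CPM in control, while COL1A2 and COL3A1 had 0 counts there. Of 5 cholangiocyte markers, only CFTR was under 1 CPM in control. The 5 summed to 3622 to 4074 CPM in control, 3525 to 3991 CPM at 2.5 µM and 1486 to 1783 CPM at 5 µM, most of it KRT7. The sum does not stand for each marker. From control to 5 µM, mean KRT7 went from 3612 to 1580 CPM and KRT19 from 203 to 51.4 CPM. SOX9 went from 1.73 to 15.8 CPM, CFTR from 0.0395 to 3.93 CPM and EPCAM from 3.57 to 5.88 CPM. The 6 fibroblast markers summed to 619 to 769, 548 to 605 and 557 to 599 CPM. From control to 5 µM, mean DCN went from 563 to 450 CPM and LUM from 119 to 82.1 CPM. COL1A1 went from 22.6 to 30.9 CPM and PDGFRB from 4.51 to 16.4 CPM. Mitochondrial genes took 3.24% to 3.67% of counts in control libraries, 2.54% to 3.29% in those at 2.5 µM and 3.11% to 3.69% in those at 5 µM. Whether any of these values bears on the results below was not tested. The cells are therefore called by their label only. In cell lysates, fewer cells that express a gene and less RNA of it per cell cannot be told apart.

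A gene that is lowest at an intermediate dose has a dose curve with a minimum in place of a steady rise or fall. The genes that had this shape here belong to many cell functions, among them the hexosamine pathway, which turns fructose-6-phosphate and glutamine into the sugar donor for glycoproteins, and amino acid enzymes under the stress factor ATF4, which is known for inducing asparagine and serine synthesis genes when amino acids are short. Others were cyclins E, which with CDK2 drive the entry into S phase, metal and haem responders, sterol and lipid enzymes, cell surface receptors and secreted proteins.

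Across the 150 genes, mean levels were 5.04 to 321 CPM in control (median 16.2), 2.47 to 159 CPM at 2.5 µM (median 9.43) and 5.17 to 219 CPM at 5 µM (median 17.6). The level at 2.5 µM was 0.181 to 0.725 of the control level, with a median of 0.607. The level at 5 µM was 1.36 to 13.2 times that at 2.5 µM, with a median of 1.63. The score ran from 0.44 to 1.52, with a median of 0.59, and reached 1, a 2-fold step on both sides, in 11 genes. The summed counts of the 4 libraries at 2.5 µM were 136 to 8791. These ratios chose the genes and are given as a description, as are the calls that follow from them, from which nothing can be read. All 150 were called lower at 2.5 µM than in control and all 150 higher at 5 µM than at 2.5 µM by edgeR's quasi-likelihood test with Benjamini-Hochberg adjustment. Of all eligible genes, 32.3% were called lower at 2.5 µM than in control, 31% higher at 5 µM than at 2.5 µM, and 7.23% both. In 144 of the 150, every library at 2.5 µM was below every control library and every library at 5 µM, against 6.01% of eligible genes. The other 6 were PCED1B, FBXO6, RPS6KL1, ECHDC3, RUNX3 and TMEM238, which are named after their values were seen.

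**Figure D1:**
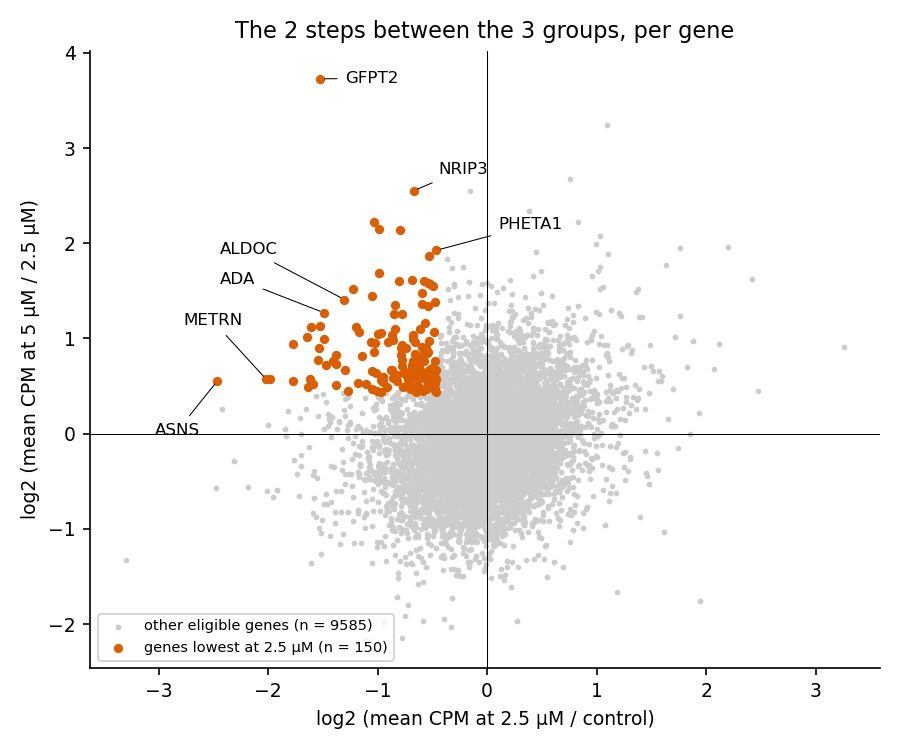
Each point is 1 eligible gene, with the log2 ratio of mean CPM at 2.5 µM over control on the horizontal axis and of 5 µM over 2.5 µM on the vertical axis; the 150 genes lowest at 2.5 µM are orange and the other 9585 are grey. The orange points fill the upper left corner, where GFPT2 stands apart by its 13.2-fold step between the doses and ASNS by its level of 0.181 of control at 2.5 µM.

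Genes with a minimum and genes with a maximum at 2.5 µM were counted as a description. A score above 0, meaning any mean lowest at 2.5 µM, was found in 1687 eligible genes, and 2440 had their highest mean at 2.5 µM. At the size of the 150th score or more, 150 genes had a minimum, a number set by the rule, and 130 had a maximum at 2.5 µM. The minimum level of 5 CPM was asked of control and of 5 µM only. It let in minima below 5 CPM at 2.5 µM and left out maxima with less than 5 CPM in control or at 5 µM. The counts of minima and maxima are therefore not like for like.

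The start regions of members were read from RefSeq on GRCh38.p14, to describe what genes with 1 shared dose curve hold in common there. A window from 250 bases before to 50 bases after the start was found for 123 of the 150 members and for 8105 eligible genes. The windows shown are those of GFPT2, the highest score, ALDOC, the second, MT1X, a metallothionein gene with a TATA box, and FUCA1, which holds an ETS motif that most members lacked. Each is the 250 bases before the start, on the gene's strand, 5′ to 3′. Capitals mark any of the 10 motifs searched, on either strand. The GFPT2 window is chr5:180353337-180353586 on the minus strand, the ALDOC window chr17:28576896-28577145 on the minus strand, the MT1X window chr16:56682220-56682469 on the plus strand and the FUCA1 window chr1:23868291-23868540 on the minus strand.
GFPT2: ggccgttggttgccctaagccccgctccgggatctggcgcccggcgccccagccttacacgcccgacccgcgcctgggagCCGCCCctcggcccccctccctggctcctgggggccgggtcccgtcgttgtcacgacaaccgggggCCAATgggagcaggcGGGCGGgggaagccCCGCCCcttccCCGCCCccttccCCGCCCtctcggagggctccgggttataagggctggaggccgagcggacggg
ALDOC: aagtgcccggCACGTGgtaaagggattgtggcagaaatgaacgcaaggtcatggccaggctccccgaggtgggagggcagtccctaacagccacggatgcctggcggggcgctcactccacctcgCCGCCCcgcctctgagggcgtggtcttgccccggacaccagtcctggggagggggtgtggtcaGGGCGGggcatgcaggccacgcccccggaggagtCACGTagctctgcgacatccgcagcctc
MT1X: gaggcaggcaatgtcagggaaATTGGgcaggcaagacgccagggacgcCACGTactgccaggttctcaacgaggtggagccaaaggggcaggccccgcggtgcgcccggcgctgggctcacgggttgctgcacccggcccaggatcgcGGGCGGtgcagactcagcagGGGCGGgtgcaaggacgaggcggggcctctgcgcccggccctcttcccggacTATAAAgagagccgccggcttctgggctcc
FUCA1: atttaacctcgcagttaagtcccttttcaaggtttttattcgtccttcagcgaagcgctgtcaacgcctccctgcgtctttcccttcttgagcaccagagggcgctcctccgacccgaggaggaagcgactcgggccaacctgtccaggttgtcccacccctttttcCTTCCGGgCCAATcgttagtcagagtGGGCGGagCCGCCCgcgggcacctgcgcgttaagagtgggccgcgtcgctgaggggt

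Member windows were rich in GC, with a median of 68.0% against 65.7% for eligible genes and 58.3% for all 27305 promoters in the RefSeq table. The SP1 GC box (GGGCGG) was present in 82.1% of member windows, 72.9% of eligible windows and 44.6% of all windows. The CCAAT box (CCAAT) was in 44.7%, 37.1% and 35.7%, the TATA box (TATAAA) in 7.32%, 4.94% and 12%, and the TEAD site (GGAATG) in 14.6%, 10.5% and 14%, in the same order. The ETS site (CCGGAAG) was found in 7 member windows, or 5.69%, against 21.6% of eligible windows and 10.7% of all windows. The core of the hypoxia response element (ACGTG) was in 21.1% of member windows, 27.9% of eligible windows and 21.6% of all windows. It lies inside the E-box (CACGTG), which was in 6.5%, 10.7% and 7.43%. The AP-1 site (TGACTCA) was in 1.63%, 2.75% and 4.92%, and the cAMP response element (TGACGTCA) in 3.25%, 3.6% and 1.98%. No member window held the C/EBP-ATF response element (TGATGCAA), which 0.469% of eligible windows and 0.923% of all windows held. Each motif was searched on both strands and the matches were not tested.

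**Figure D2:**
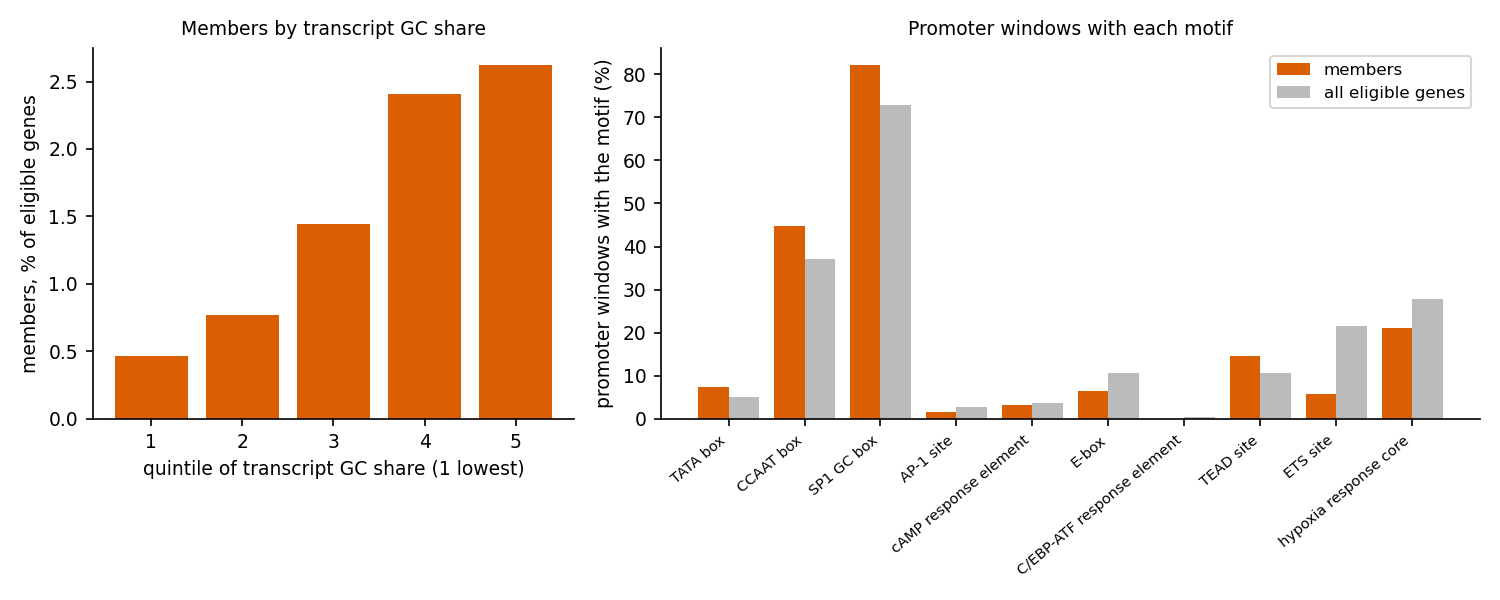
The left bars give members as a percentage of eligible genes in each quintile of transcript GC share, and the right bars give the percentage of RefSeq start windows that hold each of 10 motifs, in members (orange, 123 windows) and in all eligible genes (grey, 8105 windows). Members rise from 0.462% in the lowest quintile of GC to 2.62% in the highest, and the ETS site is in 5.69% of member windows against 21.6% of eligible windows.

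The comparison of 5 µM with control is the one that the score does not rank. Both means entered the choice as minimum levels and each was divided by the same 2.5 µM mean, but the score does not set which of them is higher. The rule does ask for a step down and then a step up, which cancel in part in the ratio of 5 µM to control. The mean at 5 µM was above control in 76 members and below it in 74. By edgeR's test 44 members rose at 5 µM and 42 fell, which is 57.3% called in all. Of eligible genes, 36.6% rose, 44.7% fell and 81.3% were called. The other 64 members were not called, and in 40 of these the log2 ratio of means was within 0.1 of 0. The 4 values at 5 µM and the 4 of control did not overlap in 66 members, 32 higher and 34 lower, against 74.4% of eligible genes. Members had a median control level of 16.2 CPM, against 47.4 CPM in the other eligible genes. Lower counts give a test less power, and these shares were not matched for level. The near-even split, the lower share called and a median near 0 can also follow in part from the rule. They are therefore given as a description. A difference of at least 2-fold in the mean was seen in 11 members that were higher and 7 that were lower, against 6.05% and 9.16% of eligible genes. The median log2 fold change of members was 0.01, against -0.07 for eligible genes and -0.01 for all 16839 genes tested.

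The steps to and from the minimum were as follows in the 3 classes. The 44 members that rose at 5 µM had a median log2 ratio of -0.60 at 2.5 µM against control and of 1.26 at 5 µM against 2.5 µM. The 42 that fell had medians of -1.28 and 0.58 for the same steps. The 64 that were not called had -0.65 and 0.63. These medians follow in part from the definition of the classes and were not tested. With library totals in place of TMM factors, 63 members were called higher and 31 lower, and the median log2 fold change of all tested genes moved to 0.12. Among the named members, the calls of ADA, MT1X and UAP1 were then lost (adjusted p = 0.137 to 0.433), and ALDOC, RBM4B and SESN2 were called higher (adjusted p = 0.00253 to 0.0438).

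**Figure D3:**
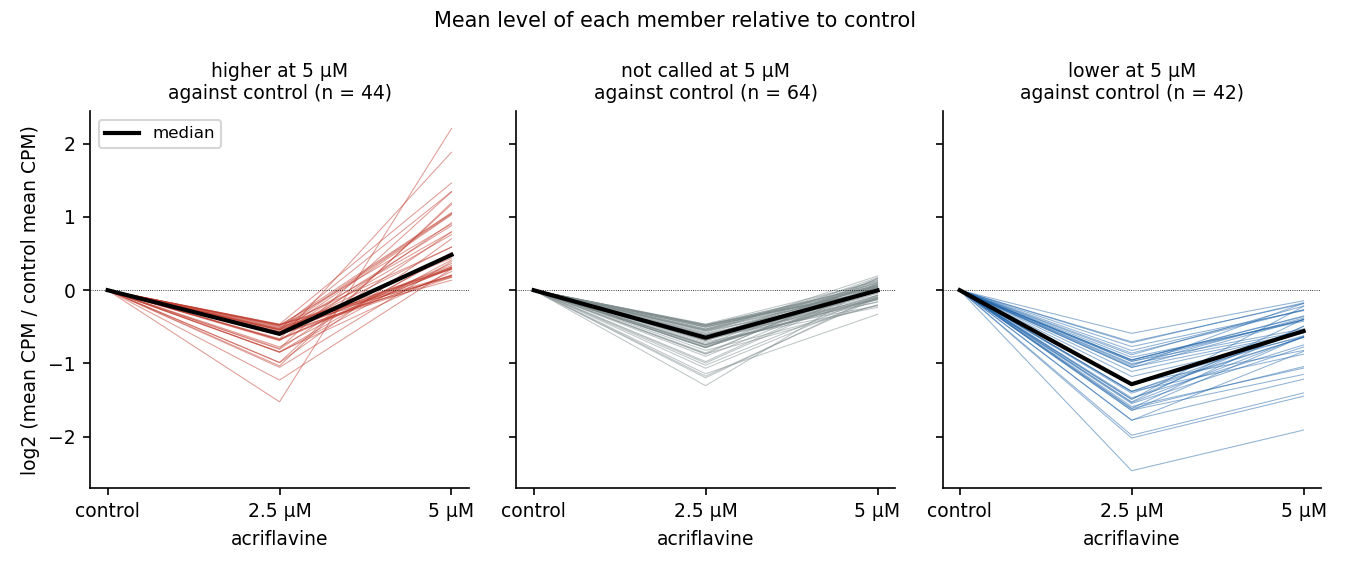
Each thin line is the mean level of 1 member relative to its own control mean, in log2, at control, 2.5 µM and 5 µM, with the members split by their edgeR call at 5 µM against control and the median drawn in black. The 44 members called higher end at a median of 0.48, the 64 not called near 0 and the 42 called lower at -0.56, which stays below control.

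The largest step between the doses was that of 1 gene, GFPT2, of the hexosamine and glycan group. UAP1 of the same group rose only 1.47-fold from 2.5 µM to 5 µM. This and the other role groups below were set after the members were known, and 86 members belong to none of them. The groups are not full tallies, since some members that share a role were left out of its group. At 5 µM against control, 36.6% of eligible genes rose and 44.7% fell, beside 29.3% and 28% of members. With few genes in each group, nothing is read from the group counts. Of 7 members of the hexosamine and glycan group, 3 rose at 5 µM against control, 2 fell and 2 were not called. GFPT2 (ENSG00000131459) encodes an amidotransferase that commits fructose-6-phosphate to the hexosamine pathway, and its start window is shown above. It had 29.5, 24, 32.2 and 22.3 CPM in control, 9.99, 9.78, 7.71 and 10.1 CPM at 2.5 µM, and 109, 107, 150 and 133 CPM at 5 µM. The 3 groups did not overlap, and the 5 µM libraries were the highest. Its log2 fold change at 5 µM against control was 2.21 ± 0.13 (SE, adjusted p = 3.95e-09).

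UAP1, which makes UDP-N-acetylglucosamine at the end of the same pathway, had 180 ± 11.7 CPM in control, 102 ± 7.04 CPM at 2.5 µM and 150 ± 18.9 CPM at 5 µM (SD, n = 4 each). It fell at 5 µM against control by 0.26 ± 0.07 on the log2 scale (adjusted p = 0.00262), although the highest library at 5 µM, with 171 CPM, reached into the control range. The UAP1 call was lost under library totals, with a log2 fold change of -0.13 (adjusted p = 0.166). FUCA1, the lysosomal fucosidase, had 16.1, 15.6, 15.7 and 18 CPM in control, 9.01, 11.3, 10.9 and 9.34 CPM at 2.5 µM and 28.2, 24.7, 37.2 and 33.5 CPM at 5 µM, and it rose by 0.93 ± 0.10 (adjusted p = 1.17e-09). POMGNT2, a glycosyltransferase of dystroglycan, averaged 7.9 CPM in control, 5.28 CPM at 2.5 µM and 16.1 CPM at 5 µM, an order kept for all such means below, and rose as well (adjusted p = 1.1e-10). FUCA1 and POMGNT2 were named after their values were seen.

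FAM20C, the Golgi kinase of secreted proteins, averaged 13 CPM in control, 4.63 CPM at 2.5 µM and 9.22 CPM at 5 µM. It fell at 5 µM against control by 0.47 on the log2 scale (adjusted p = 0.000704), though libraries of the 2 groups overlapped. NAGPA, which uncovers the mannose-6-phosphate tag of lysosomal enzymes, averaged 25.8, 18.2 and 25.8 CPM and was not called at 5 µM against control (adjusted p = 0.95). Exons of NAGPA overlap those of ALG1 on the opposite strand, and the strand setting of the counting is not given, so reads of the 2 genes cannot be told apart.

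Among 7 amino acid and nitrogen genes, 2 rose, 2 fell and 3 were not called at 5 µM against control. ASNS (ENSG00000070669), asparagine synthetase, had 303, 298, 363 and 320 CPM in control, 59.3, 60.9, 52.7 and 60.2 CPM at 2.5 µM and 79.9, 75.1, 93.2 and 94.1 CPM at 5 µM. Both doses were far below control, and every library at 5 µM was above every library at 2.5 µM. The log2 fold change at 5 µM against control was -1.90 ± 0.07 (adjusted p = 3.67e-16). PCK2, the mitochondrial enzyme that makes phosphoenolpyruvate from oxaloacetate, had the same order of groups, with 99.3, 86.9, 107 and 85.5 CPM in control, 32.7, 29.1, 30.4 and 29.6 CPM at 2.5 µM and 43.7, 43.2, 44.3 and 39.6 CPM at 5 µM. It fell by 1.15 ± 0.07 (adjusted p = 5.39e-17).

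SESN2, a leucine sensor that restrains mTORC1, averaged 41.3 CPM in control, 26.7 CPM at 2.5 µM and 43.7 CPM at 5 µM, and at 5 µM it was not called against control (adjusted p = 0.239). ASNS, PCK2 and SESN2 are the 3 members on the list of ATF4 and CHOP targets, which had 36 eligible genes. Of all tested genes, 30.7% were called higher and 28.5% lower at 2.5 µM against control, 33.6% higher and 34.8% lower at 5 µM against 2.5 µM, and 38.7% higher and 39.4% lower at 5 µM against control. Of the 39 tested genes on the list, 3 were called higher and 33 lower at 2.5 µM against control, 12 higher and 21 lower at 5 µM against 2.5 µM, and 5 higher and 31 lower at 5 µM against control. The median log2 fold changes of the list were -0.997, -0.297 and -1.28, against 0.02, -0.01 and -0.01 for all genes tested.

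ASS1, argininosuccinate synthase of the urea cycle, averaged 125 CPM in control, 82.4 CPM at 2.5 µM and 144 CPM at 5 µM. It rose at 5 µM against control by 0.21 ± 0.06 (adjusted p = 0.000905), though libraries of the 2 groups overlapped. Processed copies of ASS1 in the same table had the same order of groups: ASS1P11 averaged 18.3, 11.1 and 20.3 CPM and ASS1P9 averaged 16.5, 11.5 and 20.0 CPM. How reads were shared between ASS1 and its copies was not tested. PRODH, the first enzyme of proline breakdown, had 26.2, 25.1, 23.7 and 26.3 CPM in control, 11.4, 13.7, 10.1 and 13.7 CPM at 2.5 µM and 33.6, 29.5, 37.1 and 32.7 CPM at 5 µM. It rose by 0.39 ± 0.08 (adjusted p = 7.86e-05) with no overlap of the groups, and its exons overlap DGCR6 on the other strand. AADAT, which transaminates aminoadipate and kynurenine, had the lowest score of the set. It averaged 11.1, 7.09 and 9.61 CPM and was not called at 5 µM against control (adjusted p = 0.0561). The call appeared when control replicate 1, control replicate 3, 2.5 µM replicate 4 or 5 µM replicate 1 was left out, with adjusted p-values of 0.023 to 0.0483.

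The purine salvage and S phase group held 5 members, of which 1 rose and 4 fell at 5 µM against control. ADA (ENSG00000196839), which deaminates adenosine and deoxyadenosine, had 26.1, 24.3, 26 and 23.4 CPM in control, 8.17, 9.004, 8.94 and 9.41 CPM at 2.5 µM and 20.0, 18.1, 26.7 and 20.9 CPM at 5 µM. At 5 µM its log2 fold change against control was -0.21 ± 0.09 (adjusted p = 0.0318). Leaving out control replicate 1, or replicate 1, 2 or 4 of the 5 µM group, ended that call (adjusted p = 0.0657 to 0.14), as did RLE, upper quartile or library total scaling and DESeq2 (adjusted p = 0.0616 to 0.433). Exons of ADA overlap PKIG on the opposite strand.

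The pair of E cyclins parted at the higher dose. CCNE1 (ENSG00000105173) had 26, 25.2, 22.9 and 26.7 CPM in control, 15.9, 18.9, 19.1 and 18.3 CPM at 2.5 µM and 34.8, 33.1, 42.7 and 40.8 CPM at 5 µM, a rise of 0.59 ± 0.08 against control (adjusted p = 6.84e-08). CCNE2 (ENSG00000175305) had 14, 16.2, 13.2 and 17.3 CPM in control, 4.24, 5.14, 4.55 and 3.83 CPM at 2.5 µM and 7.40, 7.64, 9.67 and 9.37 CPM at 5 µM, a fall of 0.82 ± 0.11 (adjusted p = 4.42e-08). Both were lowest at 2.5 µM in every library, while at 5 µM CCNE1 was above all control libraries and CCNE2 below all of them. Exons of CCNE2 overlap INTS8 on the other strand. On the list of DNA replication and S phase genes, with 46 tested genes, 7 were called higher and 26 lower at 2.5 µM against control, 12 higher and 20 lower at 5 µM against 2.5 µM, and 9 higher and 29 lower at 5 µM against control, with median log2 fold changes of -0.19, -0.10 and -0.29. CCNE1 and CCNE2 were the 2 members on it. The neighbouring genes FAM111A and FAM111B, which encode trypsin-like proteases linked to DNA replication, both fell at 5 µM. FAM111B averaged 16.5, 5.29 and 10.7 CPM (adjusted p = 0.000156), with overlap between the 5 µM and control libraries. FAM111A, named after its values were seen, averaged 11.2, 5.78 and 8.74 CPM (adjusted p = 0.00256).

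**Figure D4:**
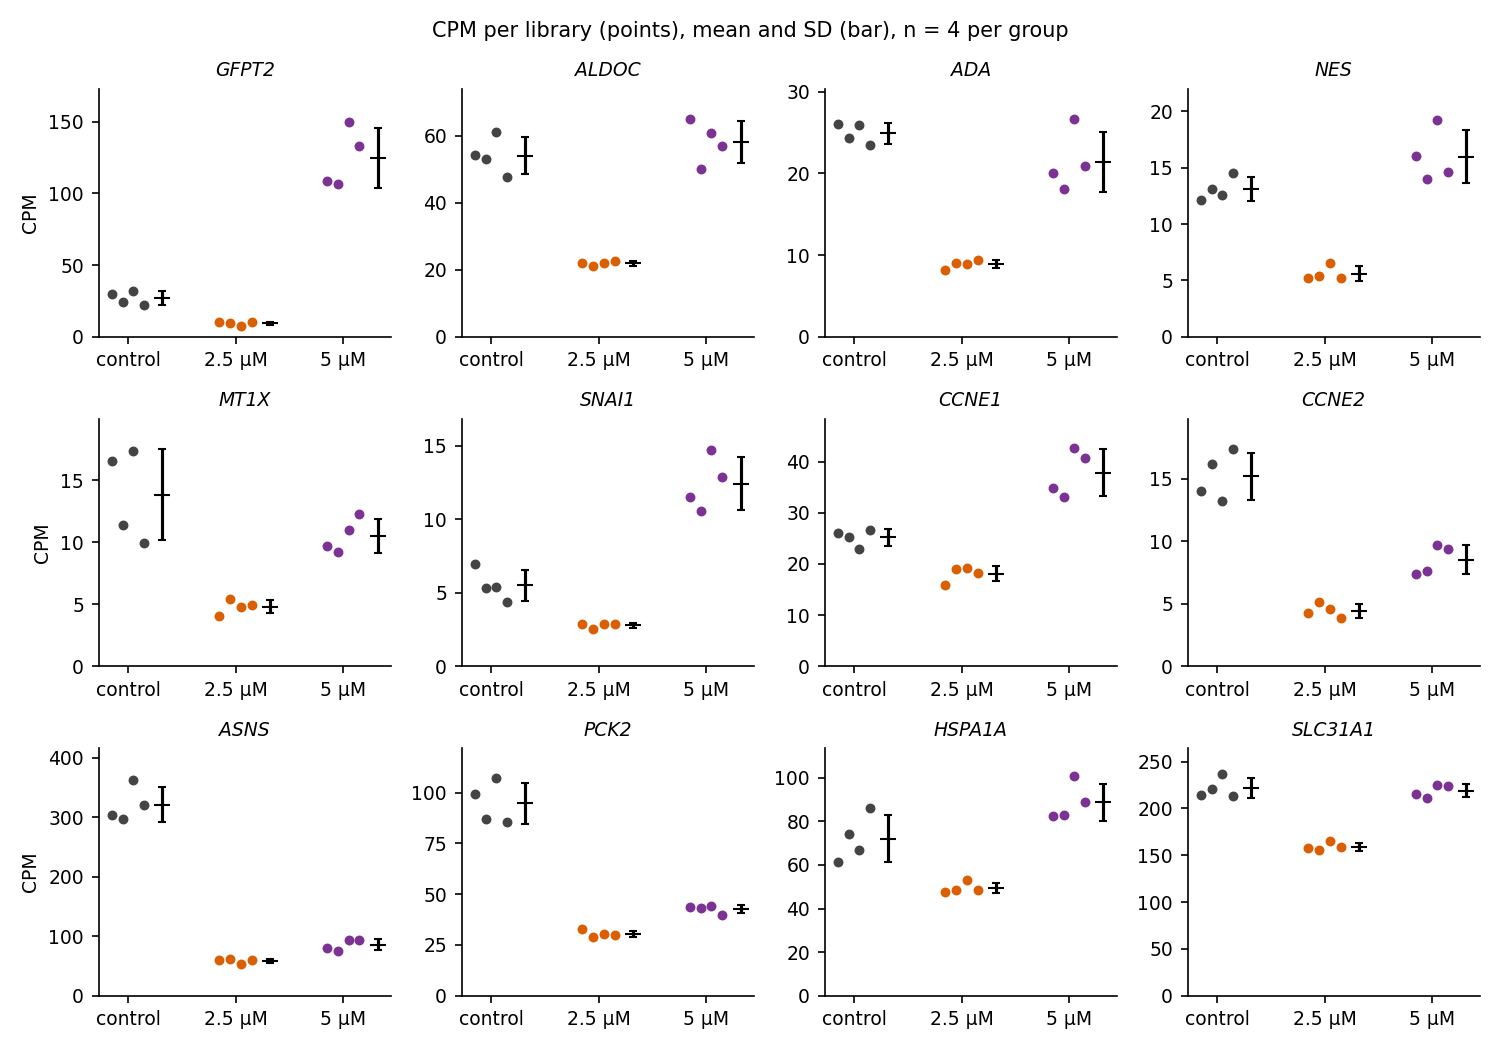
CPM of 12 members in each of the 12 libraries, with control, 2.5 µM and 5 µM from left to right, points for single libraries and a bar for the mean and SD of 4. In all 12 genes the 2.5 µM libraries are the lowest, and the 5 µM libraries lie above control for GFPT2, SNAI1 and CCNE1, across the controls for SLC31A1 and ALDOC, and below control for ASNS, PCK2 and CCNE2.

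Of 8 genes of the metal, haem, heat and redox responses, 6 were not called at 5 µM against control, 1 rose and 1 fell. MT1X (ENSG00000187193), a metallothionein that binds zinc and copper, had 16.6, 11.4, 17.4 and 9.98 CPM in control, 4.09, 5.42, 4.78 and 4.97 CPM at 2.5 µM and 9.71, 9.19, 11 and 12.2 CPM at 5 µM. The log2 fold change at 5 µM against control was -0.37 ± 0.14 (adjusted p = 0.0215), and the groups overlapped. The call was lost without control replicate 1 or 3 or 5 µM replicate 1 or 2, with adjusted p-values of 0.0525 to 0.0787. The pseudogene MT1XP1 had the same course, with 15, 5.02 and 10.6 CPM.

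SLC31A1, the copper importer, had 215, 221, 236 and 213 CPM in control, 157, 155, 165 and 159 CPM at 2.5 µM and 216, 212, 226 and 224 CPM at 5 µM. At 5 µM it overlapped the controls, with a log2 fold change of -0.01 ± 0.04 (adjusted p = 0.776) that became 0.12 (adjusted p = 0.00946) under library totals. HMOX1, which breaks down haem, averaged 60.8 CPM in control, 29.9 CPM at 2.5 µM and 58 CPM at 5 µM. FECH, which inserts iron into protoporphyrin to make haem, averaged 73.7, 50.0 and 68.9 CPM. Neither was called at 5 µM against control (adjusted p = 0.366 and 0.151). Both were named after their values were seen.

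HSPA1A and HSPA1B encode nearly the same inducible HSP70 protein and lie side by side, so the division of reads between them is uncertain. HSPA1A averaged 72.1, 49.4 and 88.8 CPM and rose at 5 µM by 0.30 ± 0.08 (adjusted p = 0.00232), with overlap between the 5 µM and control libraries. HSPA1B averaged 56.3, 35.1 and 52.9 CPM and was not called (adjusted p = 0.27). Without control replicate 1, HSPA1B was called lower, with a log2 fold change of -0.17 (adjusted p = 0.0249). On the list of cytosolic heat shock and chaperonin genes, with 29 tested genes, 8 were called higher and 9 lower at 2.5 µM against control, 5 higher and 20 lower at 5 µM against 2.5 µM, and 5 higher and 20 lower at 5 µM against control, with median log2 fold changes of 0.01, -0.28 and -0.29. HSPA1A and HSPA1B were the 2 members on that list.

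Of 8 sterol and lipid genes, 6 were not called at 5 µM against control, 1 rose and 1 fell. Those given here were named after their values were seen. HMGCS1, which makes the HMG-CoA of cholesterol synthesis, had 123, 130, 107 and 114 CPM in control, 56.8, 60.8, 64.8 and 59.1 CPM at 2.5 µM and 113, 111, 140 and 138 CPM at 5 µM (adjusted p = 0.292 at 5 µM against control). It was the 1 member on the list of cholesterol synthesis and uptake, where 25 genes were tested. Of these, 3 were called higher and 21 lower at 2.5 µM against control, 8 higher and 11 lower at 5 µM against 2.5 µM, and 3 higher and 18 lower at 5 µM against control, with median log2 fold changes of -0.56, -0.14 and -0.63. HMGCS1 was thus not among the 18 genes of that list called lower at 5 µM. ACSL1, which activates long-chain fatty acids, averaged 9.81, 6.75 and 17 CPM and rose at 5 µM against control (adjusted p = 2.21e-07). DGAT1, which makes triglyceride, averaged 23.5, 15 and 24.1 CPM (adjusted p = 0.666), and its exons overlap HSF1 on the other strand.

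The group of carbohydrate enzymes held 4 members. ALDOC (ENSG00000109107), the brain-type aldolase of glycolysis, had 54.3, 53.2, 61 and 47.7 CPM in control, 22, 21, 22 and 22.7 CPM at 2.5 µM and 65, 50.0, 60.7 and 56.9 CPM at 5 µM. The 5 µM libraries overlapped the controls, with a log2 fold change of 0.11 ± 0.07 (adjusted p = 0.176), which was called without 5 µM replicate 2 (adjusted p = 0.0385). DCXR, which reduces L-xylulose and dicarbonyl compounds, had 48.4, 48.1, 52.4 and 48 CPM in control, 37.1, 33.3, 33.9 and 35.8 CPM at 2.5 µM and 103, 90.1, 115 and 102 CPM at 5 µM, a rise of 1.06 ± 0.06 (adjusted p = 1.07e-16). IDH2, the mitochondrial isocitrate dehydrogenase that makes NADPH, averaged 58, 22.3 and 37.1 CPM and fell at 5 µM against control (adjusted p = 3.89e-10), and was named after its values were seen.

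The receptor group held 7 members and left out others such as NPTXR. Of the 7, 4 rose, 2 fell and 1 was not called at 5 µM against control. VDR, the nuclear receptor of vitamin D, had 17.7, 19.6, 20.4 and 16.8 CPM in control, 9.46, 8.37, 10.5 and 9.21 CPM at 2.5 µM and 25.8, 27.8, 36 and 31.4 CPM at 5 µM, a rise of 0.71 ± 0.09 (adjusted p = 2.15e-08). IL17RB, an interleukin receptor chain, averaged 5.04, 2.47 and 11.5 CPM and rose by 1.20 ± 0.12 (adjusted p = 9.77e-11). Exons of IL17RB overlap AC012467.2 on the other strand. FGFR1, a receptor tyrosine kinase for fibroblast growth factors, averaged 13.4, 9.01 and 20.1 CPM and rose (adjusted p = 8.89e-07), and its exons overlap LETM2 on the other strand. SDC3, a heparan sulfate proteoglycan at the surface, averaged 27.4, 9.48 and 17.7 CPM and fell (adjusted p = 1.8e-08). FGFR1 and SDC3 were named after their values were seen.

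The group of secreted ligands and matrix proteins, with the membrane protein SEMA4F among them, held 10 members. Of these, 2 rose, 5 fell and 3 were not called at 5 µM against control. METRN, meteorin, a secreted factor of glia and neurons, had 47.4, 45.9, 51.5 and 54.3 CPM in control, 12.7, 11.3, 10.8 and 14.4 CPM at 2.5 µM and 17.8, 17.4, 17.8 and 20.0 CPM at 5 µM. It fell at 5 µM against control by 1.44 ± 0.08 (adjusted p = 2.24e-17). MEGF6, which carries EGF-like repeats, averaged 14.7, 4.83 and 10.5 CPM and fell (adjusted p = 1.51e-05), as did SEMA4F, a membrane semaphorin, with 11.1, 3.62 and 5.39 CPM (adjusted p = 8.78e-10). NXPH4, a neurexophilin, averaged 17.4, 7.74 and 16.2 CPM and was not called (adjusted p = 0.294).

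The 2 members of the ligand and matrix group that rose were growth factors of 1 superfamily. TGFB1 had 128, 112, 138 and 121 CPM in control, 94.9, 93.2, 83.8 and 89.9 CPM at 2.5 µM and 141, 148.2, 151.4 and 133 CPM at 5 µM (adjusted p = 0.00193 at 5 µM against control), and its exons overlap HNRNPUL1 on the other strand. BMP6 had 25.5, 24.1, 30.1 and 22.1 CPM in control, 14.4, 15.1, 11.3 and 15.8 CPM at 2.5 µM and 31.4, 31, 38 and 35.1 CPM at 5 µM (adjusted p = 0.000139). TIMP3, an inhibitor of matrix proteases, averaged 39.6, 19.3 and 35 CPM and fell (adjusted p = 0.0259), with overlap between the 5 µM and control libraries. These 3 were named after their values were seen.

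The transcription factor group, which counts VDR again and is not a full tally, held 7 members. Of these, 3 rose, 1 fell and 3 were not called at 5 µM against control. SNAI1 (ENSG00000124216), a repressor of E-cadherin known for its part in the epithelial-to-mesenchymal transition that the study's title asks about, had 6.95, 5.35, 5.37 and 4.40 CPM in control, 2.88, 2.53, 2.85 and 2.89 CPM at 2.5 µM and 11.5, 10.6, 14.7 and 12.9 CPM at 5 µM. The 3 groups did not overlap, and the log2 fold change at 5 µM against control was 1.17 ± 0.13 (adjusted p = 3.66e-10). FOS, the AP-1 subunit, averaged 6.44, 4.43 and 8.02 CPM and rose (adjusted p = 0.0221), though libraries at 5 µM and of control overlapped. HOXB9 averaged 9, 3.25 and 5.37 CPM and fell (adjusted p = 5.52e-06). Both were named after their values were seen. RUNX3, a runt-domain factor, and TOX2, an HMG-box factor, were not called, with 8.53, 6.11 and 8.49 CPM and with 8.54, 5.33 and 8.58 CPM (adjusted p = 0.978 and 0.898). In RUNX3 the highest library at 2.5 µM, with 7.12 CPM, was above the lowest at 5 µM, with 6.53 CPM.

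The 2 genes of the cell death group moved apart at 5 µM. CASP10, an initiator caspase of death receptors, averaged 12.3, 4.74 and 6.74 CPM and fell (adjusted p = 5.01e-08). BCL2L11, which encodes the BH3-only protein BIM, averaged 16.1, 11.1 and 21.8 CPM and rose (adjusted p = 3.52e-05), with exons that overlap MIR4435-2HG on the other strand. BCL2L11 was named after its values were seen.

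Among members outside these role groups, the largest rises at 5 µM against control were those of NRIP3, PHETA1, ZCCHC24 and NPTXR. NRIP3 had 5.16, 4.69, 6.35 and 4.82 CPM in control, 2.72, 2.67, 3.78 and 4.03 CPM at 2.5 µM and 16.6, 14.6, 24.5 and 21.7 CPM at 5 µM, a rise of 1.90 ± 0.16 (adjusted p = 1.65e-10). PHETA1, an adaptor of endosomal traffic, averaged 16.1, 11.7 and 44.3 CPM, so its step down was near the smallest of the set and its step up was 3.8-fold. NPTXR, the neuronal pentraxin receptor, was not counted in the receptor group above and averaged 11.6, 6.69 and 29.4 CPM. ZCCHC24 averaged 9.72, 6.75 and 24.7 CPM. Each of the 4 had all libraries at 5 µM above all controls.

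The largest falls outside these role groups were those of MARVELD1, ATP2A3 and RBM14. MARVELD1, a MARVEL-domain membrane protein, had 264, 234, 261 and 235 CPM in control, 66.5, 58.1, 65.8 and 61.8 CPM at 2.5 µM and 95.7, 92, 92.9 and 96 CPM at 5 µM, a fall of 1.4 ± 0.05 (adjusted p = 2.77e-22). ATP2A3, a calcium pump of the endoplasmic reticulum, averaged 22.5, 6.60 and 9.71 CPM, and RBM14, an RNA-binding protein of paraspeckles, averaged 83.2, 27.7 and 39.8 CPM. Both fell at 5 µM (adjusted p = 3.75e-13 and 7.9e-16).

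RBM4B, next to RBM14 on chromosome 11, was not called at 5 µM against control, with 16.7, 8.39 and 17.3 CPM (adjusted p = 0.569). Its exons overlap RBM4 on the other strand. NES, the intermediate filament protein nestin, had 12.1, 13.1, 12.5 and 14.6 CPM in control, 5.22, 5.35, 6.55 and 5.24 CPM at 2.5 µM and 16, 14, 19.3 and 14.6 CPM at 5 µM. It rose by 0.29 ± 0.10 (adjusted p = 0.0109), a call that was lost without 5 µM replicate 3 (adjusted p = 0.105). PRSS16, a serine protease named for the thymus, averaged 10.0, 4.37 and 9.48 CPM (adjusted p = 0.571). RHOQ, a small GTPase, averaged 30.2, 17.6 and 30.1 CPM and FOXL2NB 9.24, 6.32 and 9.25 CPM, and both lay within 0.01 of control on the log2 scale at 5 µM. Exons of RHOQ overlap PIGF on the opposite strand.

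**Figure D5:**
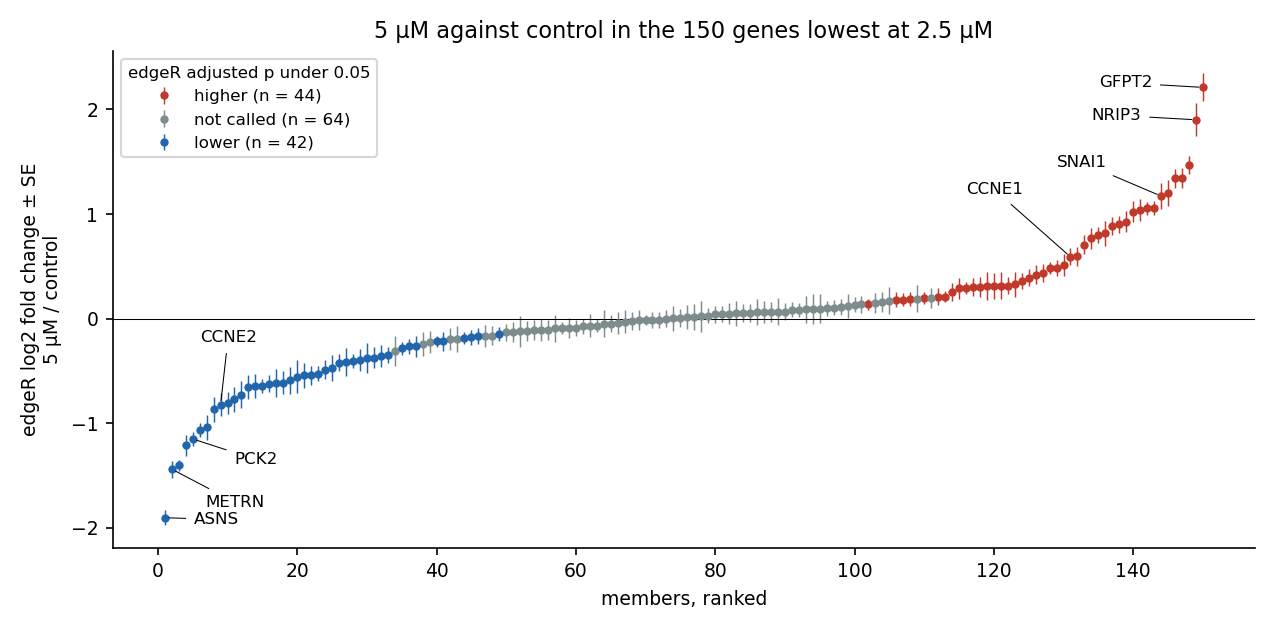
The edgeR log2 fold change at 5 µM over control with its SE for each of the 150 members, ranked from lowest to highest, with 44 called higher in red, 64 not called in grey and 42 called lower in blue. The points run from -1.90 in ASNS through 0 to 2.21 in GFPT2.

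The 39 gene lists of known pathways and cell types held 20 of the 150 members, out of 933 eligible genes on a list. That is 2.14% of them, against 1.54% of all eligible genes that are members. The 3 lists with more than 1 member were the ATF4 and CHOP targets, S phase and heat shock lists given above. Another 14 lists held 1 member each, such as TGFB1, FOS, HMOX1, SNAI1 and FGFR1, and 22 lists held none.

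Transcript structure was compared as a description. The median GC share of the transcript was 54.6% in members and 47.8% in the other 9585 eligible genes. Members were 0.462%, 0.77%, 1.44%, 2.41% and 2.62% of eligible genes over the quintiles of GC share, low to high. GC share also moved with the groups over all eligible genes: the median log2 ratio of 5 µM over 2.5 µM was -0.25 in the lowest quintile and 0.03 in the highest, while that of 2.5 µM over control was 0.03 and -0.03. With both ratios centred on the median of each GC quintile, an alternative chosen after seeing the data, 132 of the 150 members were kept. The median gene span was 24035.5 bp in members against 34216 bp, and the median number of exon blocks was 9 against 11, but 11 in the 75 or 300 highest scores. Their median control level was 16.2 CPM, against 47.4 CPM in the other eligible genes. Members were present in every quintile, so a high GC share was not common to all of them. Over all eligible genes, the score had a Spearman correlation of 0.135 with GC share and -0.0455 with gene span, as a description across genes that are not independent and share the libraries.

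Members lay on all autosomes but chromosome 13, which held 0 of its 156 eligible genes as members. Chromosome 22 held 9 members of 233 eligible genes, or 3.86%, and chromosome 17 held 14 of 582, or 2.41%, against 1.54% over all chromosomes. FAM111B with FAM111A, RBM14 with RBM4B, MMD with PCTP, and HSPA1A with HSPA1B were the 4 pairs of members that neighbour each other among eligible genes.

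Reads of some members could belong in part to other genes. Exons of 27 members overlap those of another gene of at least 1 CPM, on the opposite strand in 26 of them. Together with members that have a copy or pseudogene in the table, 41 members are uncertain in this way and 109 are not. Of the 109, a count chosen after seeing the data, 32 members rose and 31 fell at 5 µM against control. Of all eligible genes, 36.6% rose and 44.7% fell.

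The limit of the set is arbitrary. Just inside it were LMBR1L, KLHL36 and AADAT, with scores of 0.443, 0.442 and 0.439. Just outside it were LGMN, SIRPA and PTPN6, with scores of 0.439, 0.435 and 0.434. LGMN, a lysosomal cysteine protease, averaged 61.4 CPM in control, 45.3 CPM at 2.5 µM and 77.1 CPM at 5 µM.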

How the data were processed

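Raw gene-level counts of 12 poly-A libraries, as whole numbers that the authors did not normalize, made up the deposited table. Per the submitters' processing notes, GRCh37 was used with STAR 2.4.1d, featureCounts 1.4.6, edgeR 3.8.6, cutadapt 1.7.1, bedtools 2.17.0, Cufflinks 2.1.1, Bowtie2 2.2.4 and SAMtools 1.1, whose roles are not stated. Per the labels' protocols, the library kit marked strand. Whether the counting used strand, and from which annotation release, is not given in the sources used here.

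Genes with enough counts were kept with filterByExpr (minimum count 10), which left 16839. Tests used edgeR 4.0.16 in R 4.3.3 (TMM, robust quasi-likelihood fit, all 12 libraries in 1 fit with group as its only term, 9 residual degrees of freedom), with Benjamini-Hochberg adjustment over all tested genes and a threshold of 0.05. CPM are counts per 1000000 of the TMM-scaled library size. SE is the absolute log2 fold change divided by the square root of F. Gene classes, chromosomes, gene spans, exon blocks, exon overlaps, gene order and transcript GC share came from GENCODE 29 by Ensembl identifier. No coordinates from it are printed. Motif windows came from RefSeq. The steps were tested on simulated data.

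The members and lists were chosen with earlier results of these data known. Genes were named by rule: the 15 highest scores, the 8 largest rises and 8 largest falls at 5 µM against control, the 5 nearest to control, the 5 highest control levels, up to 3 members of each list with at least 2, and 3 genes on either side of the limit. Others are stated to be named after their values were seen. Replicate numbers did not pair the samples: over 12 pairs with the same number, residual correlations were -0.237 to 0.145. Alternatives were other scalings, no filter, DESeq2 1.42.0, a replicate block, each library left out, other minimum levels and other scores.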

Additional observations from a re-analysis of the deposited data

Results flagged for a closer look

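Of 132 groups of 4 libraries (44 named members in 3 groups), 10 had 1 library far from the other 3 by Dixon's test at the 95% level, where chance gives about 1 in 20. At 2.5 µM, GFPT2 was 7.706 CPM in replicate 3, with the others at 9.778 to 10.15. NES was 6.55 CPM in replicate 3, with the others at 5.223 to 5.346. SNAI1 was 2.532 CPM in replicate 2, with the others at 2.851 to 2.89. PHETA1 was 12.72 CPM in replicate 1, with the others at 11.26 to 11.4. RUNX3 was 7.115 CPM in replicate 1, with the others at 5.646 to 5.856. HSPA1A was 52.94 CPM in replicate 3, with the others at 47.76 to 48.47. In control, DCXR was 52.36 CPM in replicate 3, with the others at 47.98 to 48.36, and CASP10 was 10.58 CPM in replicate 4, with the others at 12.8 to 13.12. At 5 µM, replicate 4 had METRN at 20.0 CPM, with the others at 17.43 to 17.82, and FOXL2NB at 10.87 CPM, with the others at 8.502 to 8.821.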

How the results depend on the processing

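At 5 µM against control, 44 members were called higher and 42 lower. The counts were 46 and 38 with RLE factors, 47 and 37 with upper quartile scaling, 63 and 31 with library totals, 44 and 43 without the low count filter, and 45 and 38 by DESeq2. With 1 library left out they were 36 to 45 higher and 38 to 45 lower. Replicate numbers did not pair the samples, and a replicate block gave 44 higher and 42 lower and changed no call of a named member. Over all tested genes, leaving out 1 library gave 4727 to 5019 higher and 4503 to 4955 lower at 2.5 µM against control, 5502 to 5896 and 5426 to 6020 at 5 µM against 2.5 µM, and 6385 to 6707 and 6471 to 6817 at 5 µM against control. Of the 150 members, 138 to 144 were kept without 1 library, 149 with RLE factors, 143 with upper quartile scaling, 127 with library totals, 143 with 1 CPM added and 141 with medians. A minimum of 1 CPM kept 61, since more genes then compete, and a minimum of 10 CPM kept 102, the number that have that level. Centring on GC quintiles kept 132. The 75 and 300 highest scores had a median transcript GC share of 54.2% and 53.4%, a gene span of 24118 and 29737 bp and 11 exon blocks each. Of the 109 members left without those that overlap another gene or have a copy, 32 were called higher and 31 lower. Of all eligible genes, 36.6% were called higher and 44.7% lower. Under library totals SLC31A1 changed sign at 5 µM against control, to 0.12, where the median of all genes also moved to 0.12. The adjusted p of ADA was 0.000786 to 0.433 and that of MT1X 0.000544 to 0.137 over all alternatives. Levels near 5 CPM rest on few reads, which limits the precision of the lowest members.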

Other observations

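Some rows outside the protein-coding class had the same course. Of 1576 noncoding or pseudogene rows with at least 5 CPM in control and at 5 µM, 26 reached the score of the 150th member. That is a share similar to the 150 of 9735 eligible genes. Of the 26, 14 were processed pseudogenes. The 2 highest were MTND2P28, a nuclear copy of a mitochondrial gene, with a score of 1.53, and MT1XP1, with 1.08. Whether reads counted for MTND2P28 came from the mitochondrial gene was not tested. Several belonged to members as copies, among them MT1XP1, ASS1P11, ASS1P9 and SLC31A1P1. SLC31A1P1 had 10.8 CPM in control, 6.49 CPM at 2.5 µM and 12.2 CPM at 5 µM. How reads were shared between members and their copies was not tested, so these rows may not be separate cases. H19, an imprinted long noncoding RNA, averaged 417 CPM in control, 188 CPM at 2.5 µM and 296 CPM at 5 µM. These rows were named after their values were seen.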
